A study of Mus musculus with 22 samples.

Results

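The genes described here are 10 genes of serine synthesis and the integrated stress response, followed in inguinal white fat of PPARα-null and wild-type mice kept cold or warm. They are Phgdh, Psat1, Psph, Shmt2, Mthfd2, Asns, Atf4, Atf5, Ddit3 and Trib3. Each is read by the array probe set whose only annotated symbol is that gene, and each of the 10 has a single such probe set. They are 10 of 22180 genes measured on the array.

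There were 22 whole-transcript arrays, 1 per male mouse. The groups were 5 PPARα-null mice at 5 °C, 5 wild-type mice at 5 °C, 6 PPARα-null mice at 28 °C and 6 wild-type mice at 28 °C, on a C57BL/6 background and 3 to 4 months old at the start. All mice, controls included, first spent 5 weeks at 28 °C, which is thermoneutral for mice. The 5 °C groups then had 1 week at 21 °C and 10 days at 5 °C, while the others stayed at 28 °C, and all were on chow. The labels name PPARα−/− mice and no tissue-specific driver of the deletion, so effects of its loss in fat and elsewhere cannot be told apart. Each group had 10 mice housed, and the labels do not say how the arrayed mice were picked or whether they shared cages or litters.

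Serine is made from a glycolytic intermediate by 3 enzymes acting in order, Phgdh, Psat1 and Psph. Shmt2 and Mthfd2 carry the serine-derived carbon unit through the mitochondrial folate pathway, which feeds nucleotide synthesis and mitochondrial translation. In the integrated stress response, kinases that phosphorylate the initiation factor eIF2 slow general translation while the transcription factor ATF4 is made more efficiently, so that much of ATF4 control lies above the level of its mRNA. ATF4 is known to induce the serine and folate enzymes, Asns (asparagine synthetase), Atf5, Ddit3 (CHOP) and Trib3. In mammalian cells the response is also a known consequence of mitochondrial stress.

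ATF4 binds with C/EBP partners to elements with the core TGATGNAA, and Asns is a textbook target. The promoter is shown because Asns had the smallest p of the 10 genes in both cold comparisons. The 250 bases before the RefSeq start of Asns (GRCm38.p6, minus strand, chr6:7693210-7693459) hold 1 match, at positions -23 to -16 from the start, printed in capitals. The only other match among the 12 promoter windows of the 10 genes was in Trib3, on the opposite strand at positions 15 to 22 after the start. The 30 bases around it lie on the minus strand at chr2:152344028-152344057, and its capitals mark the reverse complement of the core.
Asns: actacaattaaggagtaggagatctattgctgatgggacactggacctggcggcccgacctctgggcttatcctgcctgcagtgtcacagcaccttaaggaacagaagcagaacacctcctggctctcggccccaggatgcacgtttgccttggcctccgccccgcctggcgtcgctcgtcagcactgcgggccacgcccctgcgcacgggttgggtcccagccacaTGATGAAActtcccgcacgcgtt
Trib3: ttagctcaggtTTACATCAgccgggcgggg
Both strands were searched in windows of 300 bases, 250 before and 50 after each start. Over all genes 1304 of 32851 windows (3.97%) held the core. A match describes these letters only and is not evidence of binding.

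The values are log2 expression values, with lower quartiles of 2.94 to 3.05 over the genes of each array, and the lowest value of any of the 10 genes was 4.54, in Mthfd2. No pair of arrays was identical, and the correlation between any pair was 0.958 to 0.981. White adipocyte markers averaged 11.17 to 11.64 per mouse over 8 genes and epithelial markers 3.44 to 3.94 over 4. The single Ppara probe set read 6.30 ± 0.56 in the cold null mice against 6.59 ± 0.34 in the cold wild-type mice (SD, n = 5 each), and 4.88 ± 0.43 against 4.72 ± 0.23 in the warm null and wild-type mice (SD, n = 6 each). Neither genotype difference passed (−0.29, adjusted p = 0.895, and 0.16, adjusted p = 0.956). Where these probes lie relative to the deleted part is not known here, so they do not check the genotype labels. Arrays carry no read depth, and their number limits the precision.

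**Figure D1:**
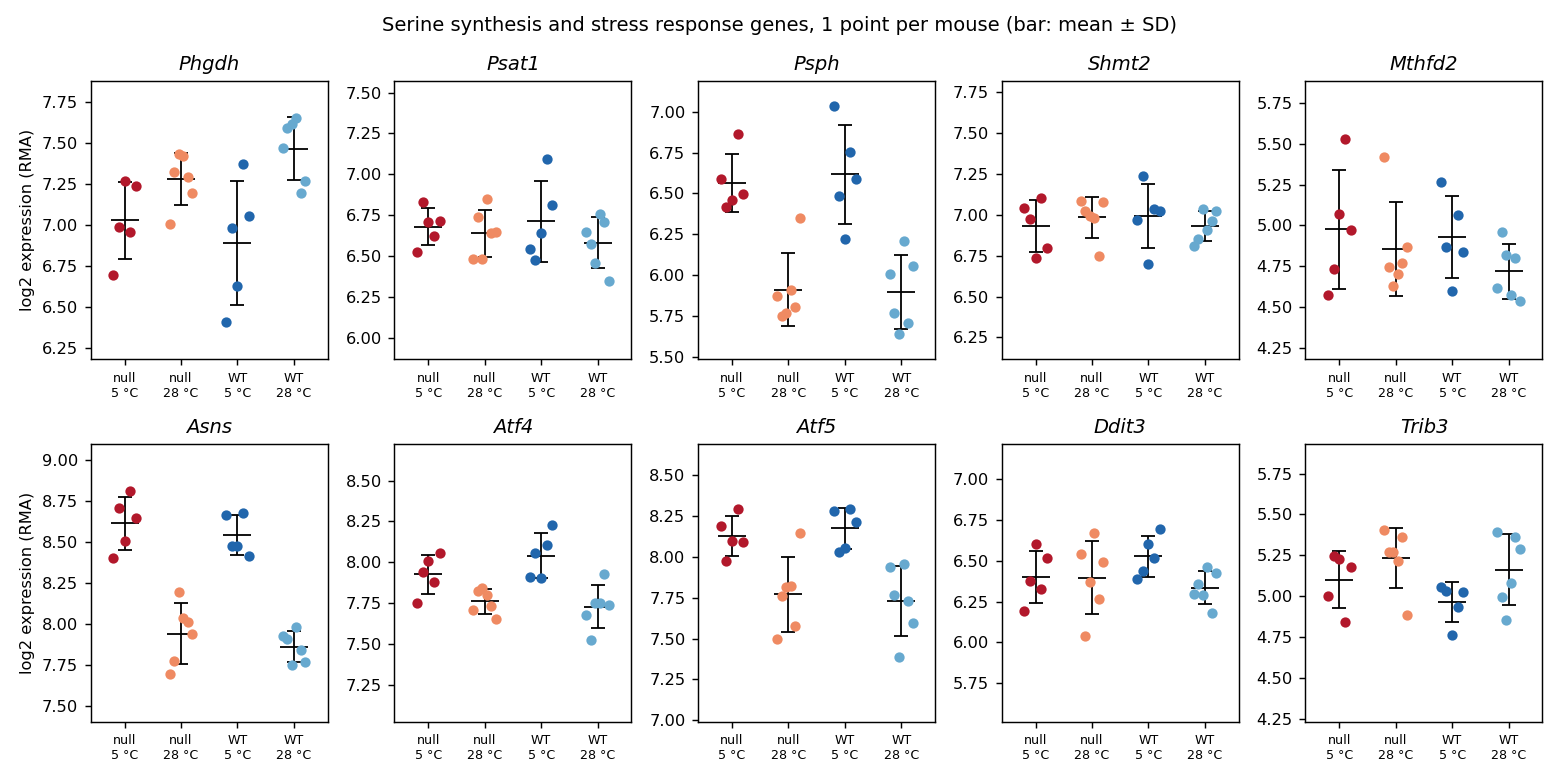
Log2 expression of the 10 genes, 1 point per mouse and 1 panel per gene, with the mean and SD of each group as bars. Groups run from null 5 °C and null 28 °C to wild-type 5 °C and 28 °C, and every panel spans the same number of log2 units. Asns and Psph at 5 °C lie above their 28 °C groups with no overlap in both genotypes, and Atf5 does so in wild-type mice alone. The cold and warm groups of the other genes overlap in both genotypes. Over all genes 5.05% lie above without overlap in null mice and 6.27% in wild-type mice.

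The first question was what cold does to these genes in mice without PPARα. Of the 10 genes, 3 rose at 5 °C in null mice (Asns, Psph and Atf5) and 0 fell, beside 13.2% of all genes called (6.88% higher, 6.33% lower; limma, with a threshold of 0.05 on p-values adjusted by Benjamini-Hochberg across the array). In wild-type mice 4 rose (Asns, Psph, Atf5 and Atf4) and 1, Phgdh, fell, beside 16.7% of all genes called (8.35% higher, 8.3% lower). These splits move with the scaling: with array medians subtracted 1767 genes were higher and 1039 lower in null mice (1525 and 1405 as deposited), and 2368 higher and 1354 lower in wild-type mice (1852 and 1841), and the calls of the 10 genes were the same. At percentiles 52 to 92 of mean signal, all 10 genes lay above the dimmest 50% of genes. Without those, 1695 of 11090 genes were higher and 1810 lower in null mice, and 1885 and 2208 in wild-type mice. These are larger shares than over all genes, while the number of the 10 genes called stayed the same. The median change over the 10 genes was 0.08 log2 units in null and 0.20 in wild-type mice, against medians over all genes of −0.0034 and 0.0093. In null mice 2 of the 10 genes had every cold mouse above every 28 °C mouse, as did 5.05% of all genes, and in wild-type mice 3 did, as did 6.27%. The reverse, every cold mouse below every 28 °C mouse, held for 0 of the 10 in null mice (4.06% of all genes) and 0 in wild-type mice (5.53%).

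The 3 enzymes of serine synthesis moved differently. Psph, the phosphatase of the last step, read 6.59, 6.42, 6.46, 6.86 and 6.50 log2 units in the null mice at 5 °C, against a lowest, median and highest value of 5.75, 5.84 and 6.35 in the null mice at 28 °C. It read 7.03, 6.48, 6.22, 6.75 and 6.59 in the wild-type mice at 5 °C, against 5.64, 5.89 and 6.21 in those at 28 °C. Every cold mouse lay above every warm mouse of its genotype, although the wild-type margin was narrow, with a lowest cold value of 6.22 and a highest warm value of 6.21. In null mice Psph rose by 0.66 (SE 0.14, adjusted p = 0.00211), and in wild-type mice by 0.72 (SE 0.14, adjusted p = 0.000683), a 1.6-fold change in signal in each.

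Phgdh, the dehydrogenase that commits carbon to serine, went the other way. It read 6.69, 6.99, 7.27, 6.96 and 7.24 log2 units in the null mice at 5 °C, against 7.01, 7.31 and 7.44 (lowest, median and highest) at 28 °C. In the wild-type mice it read 6.40, 6.98, 6.63, 7.37 and 7.05 at 5 °C, against 7.20, 7.53 and 7.66 at 28 °C. The groups overlapped in both genotypes, in the wild type through the single cold mouse at 7.37. Phgdh fell by 0.58 on the log2 scale in wild-type mice (SE 0.14, adjusted p = 0.00690). The null change was −0.25 (SE 0.14, adjusted p = 0.314), which did not pass. Its cold SD was 0.38 in wild-type mice (n = 5), beside 0.19 at 28 °C (n = 6).

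Psat1, the aminotransferase between these steps, ran from 6.53 to 6.83 log2 units in null mice at 5 °C and from 6.48 to 6.85 in those at 28 °C. In wild-type mice it ran from 6.48 to 7.09 at 5 °C and from 6.35 to 6.76 at 28 °C. The changes were 0.04 (95% interval −0.18 to 0.26, adjusted p = 0.875) and 0.13 (−0.09 to 0.35, adjusted p = 0.457), so changes beyond those bounds lie outside the intervals and smaller ones are not excluded. The pathway's enzymes thus showed a rise, a fall in wild-type mice and a change that did not pass.

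The mitochondrial folate enzymes did not pass in either genotype. Shmt2, the serine hydroxymethyltransferase that releases the carbon unit, averaged 6.93 ± 0.16 in cold and 6.99 ± 0.12 in warm null mice, and 6.99 ± 0.19 in cold and 6.93 ± 0.09 in warm wild-type mice (SD, n = 5 cold and 6 warm). Its changes were −0.05 (−0.24 to 0.14, adjusted p = 0.788) and 0.06 (−0.13 to 0.25, adjusted p = 0.727). Mthfd2, the next enzyme of that pathway, averaged 4.98 ± 0.36 in null mice at 5 °C and 4.86 ± 0.29 at 28 °C, and 4.93 ± 0.25 in wild-type mice at 5 °C and 4.72 ± 0.17 at 28 °C (SD, n = 5 cold and 6 warm). It varied most among the null mice, where single mice reached 5.53 at 5 °C and 5.42 at 28 °C. Its intervals, −0.21 to 0.45 and −0.12 to 0.54, are the widest of the 10 genes.

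Asns, which makes asparagine from aspartate and glutamine, had the smallest p of the 10 genes in both genotypes. It read 8.40, 8.71, 8.51, 8.81 and 8.64 log2 units in the null mice at 5 °C, against 7.69, 7.97 and 8.20 (lowest, median and highest) at 28 °C. In the wild-type mice it read 8.67, 8.48, 8.48, 8.68 and 8.42 at 5 °C, against 7.75, 7.87 and 7.98 at 28 °C. Cold and warm mice did not overlap in either genotype. In null mice the rise was 0.67 (SE 0.09, adjusted p = 1.80e-05), and in wild-type mice 0.68 (SE 0.09, adjusted p = 1.27e-05), 1.6-fold each.

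Among the transcription factors the changes were smaller. Atf4, the central activator of the response, read 7.75, 7.94, 8.01, 7.88 and 8.05 log2 units in the null mice at 5 °C, against 7.65, 7.77 and 7.85 (lowest, median and highest) at 28 °C. In the wild-type mice it read 7.91, 8.06, 7.91, 8.11 and 8.23 at 5 °C, against 7.52, 7.74 and 7.93 at 28 °C. The groups overlapped in both genotypes. Atf4 rose by 0.31 in wild-type mice (SE 0.08, adjusted p = 0.00694), and in null mice the change of 0.17 did not pass (SE 0.08, adjusted p = 0.199).

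Atf5, an ATF4 relative known to act on mitochondrial protein quality control, read 8.19, 7.97, 8.09, 8.29 and 8.09 log2 units in the null mice at 5 °C, against 7.50, 7.79 and 8.15 (lowest, median and highest) at 28 °C. In the wild-type mice it read 8.28, 8.03, 8.06, 8.29 and 8.21 at 5 °C, against 7.39, 7.75 and 7.96 at 28 °C. Cold and warm mice were apart in the wild type, and in null mice 1 warm mouse, replicate 6 at 8.15, lay within the cold range. Atf5 rose by 0.45 in wild-type mice (SE 0.11, adjusted p = 0.00668) and by 0.36 in null mice (SE 0.11, adjusted p = 0.0351). The call in null mice is near the threshold: it was lost when null 5 °C replicate 1, 3, 4 or 5 or null 28 °C replicate 1, 2 or 5 was left out (0.30 to 0.37, adjusted p = 0.0521 to 0.0989), and when only null mice were fitted (adjusted p = 0.0668).

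Ddit3, the stress factor CHOP, and Trib3, a pseudokinase that ATF4 and CHOP induce and that restrains them, did not pass in either genotype. Ddit3 ran from 6.19 to 6.60 log2 units in null mice at 5 °C and from 6.04 to 6.67 at 28 °C, and from 6.39 to 6.69 in wild-type mice at 5 °C and from 6.18 to 6.46 at 28 °C. Its changes were 0.01 (−0.20 to 0.21, adjusted p = 0.981) and 0.19 (−0.02 to 0.40, adjusted p = 0.218). Trib3 ran from 4.84 to 5.25 in null mice at 5 °C and from 4.89 to 5.40 at 28 °C, and from 4.76 to 5.06 in wild-type mice at 5 °C and from 4.85 to 5.39 at 28 °C. Its changes were −0.13 (−0.36 to 0.09, adjusted p = 0.516) and −0.20 (−0.43 to 0.03, adjusted p = 0.244).

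**Figure D2:**
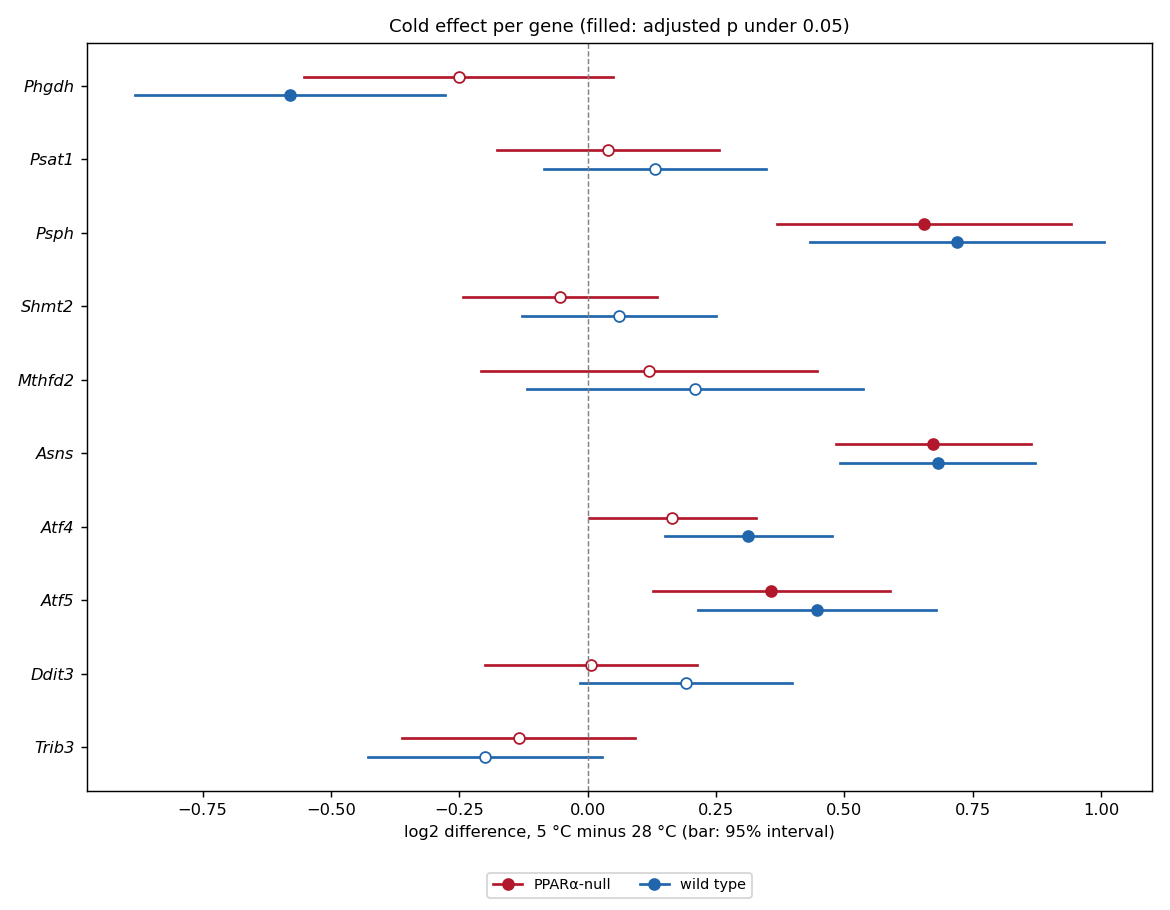
Cold effect on each gene in log2 units (5 °C minus 28 °C), null mice above wild-type mice, with 95% intervals from the limma fit and filled points for adjusted p under 0.05. Filled points stand at Psph, Asns and Atf5 in both genotypes and at Phgdh (below 0) and Atf4 in wild-type mice.

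The second question was whether these changes depend on PPARα. The difference of the cold effects (null minus wild type) passed for 0 of the 10 genes and for 0 of 22180 genes by limma, with 0 of the 10 and 1137 of all genes (5.13%) at an unadjusted p under 0.05. For Asns it was −0.01 (95% interval −0.28 to 0.26), for Psph −0.06 (−0.47 to 0.34) and for Atf5 −0.09 (−0.42 to 0.24). For Phgdh, called in wild-type mice alone, it was 0.33 (−0.10 to 0.75, adjusted p = 0.980), and for Atf4 −0.15 (−0.38 to 0.08, adjusted p = 0.988). The call in 1 genotype and not the other is therefore not a shown difference between them for either gene. The sign was negative, a smaller value in null mice, for 8 of the 10 genes, with Phgdh and Trib3 positive. The median was −0.09, against −0.0029 over all genes. All 10 genes were read in the same mice, and the signs of Psat1, Psph, Mthfd2, Asns and Trib3 changed when 1 array was left out.

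Null and wild-type mice were also compared at each temperature. Of the 10 genes 0 passed at 5 °C, beside 0.149% of all genes (0.0406% higher, 0.108% lower), and 0 passed at 28 °C, beside 0.194% (0.0451% higher, 0.149% lower), and 0 of the 10 had an unadjusted p under 0.05 at either temperature, against 1476 and 1496 of all genes. At 5 °C the differences (null minus wild type) ran from −0.12 for Ddit3 to 0.14 for Phgdh, and at 28 °C from −0.19 for Phgdh to 0.14 for Mthfd2. They were positive for 4 of the 10 genes at 5 °C and for 9 of the 10, all but Phgdh, at 28 °C. Their medians were −0.04 and 0.06, against 0.0049 and 0.0104 over all genes. Atf4 lies on chromosome 15, as Ppara does, with 92 protein-coding RefSeq genes between them, so sequence inherited with the disrupted allele could include it. Its genotype difference was −0.11 at 5 °C (−0.28 to 0.06, adjusted p = 0.870) and 0.03 at 28 °C (−0.12 to 0.19, adjusted p = 0.981).

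**Figure D3:**
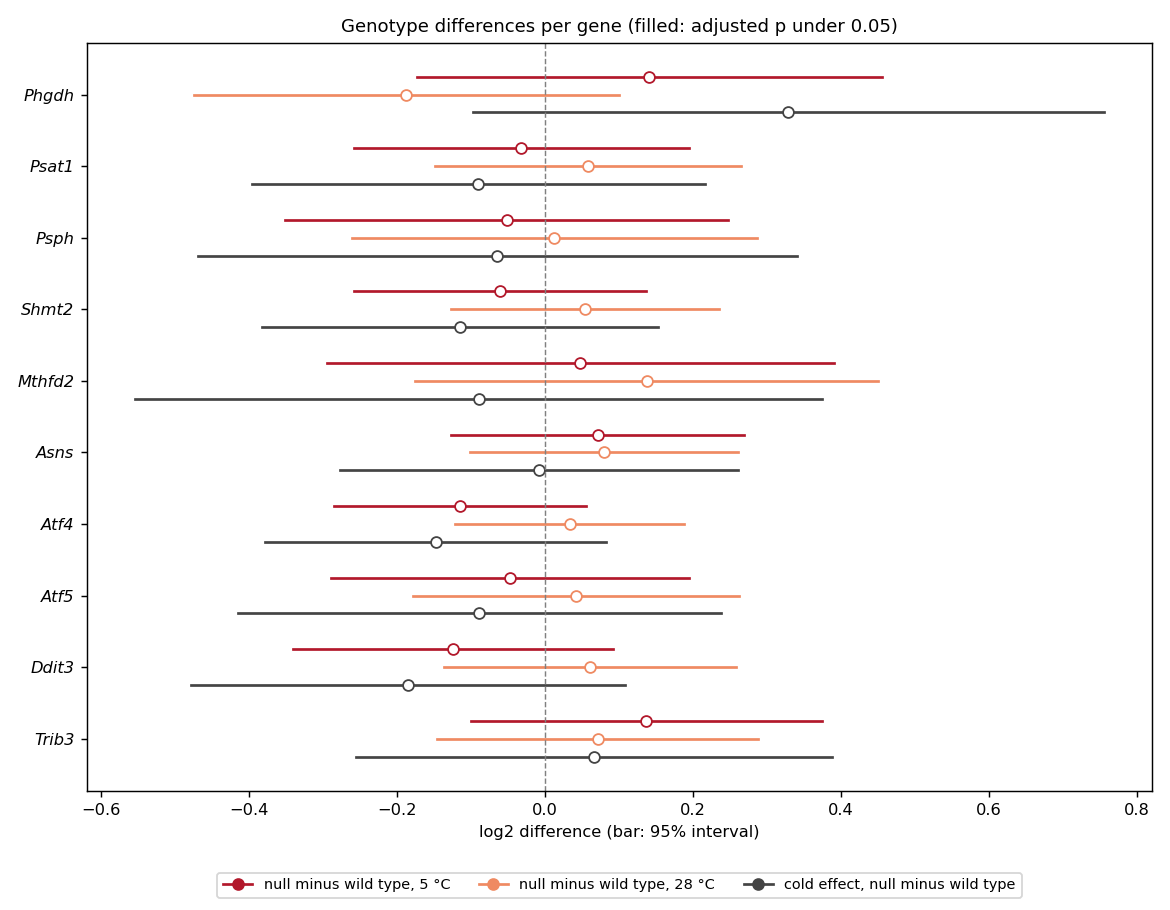
Differences between null and wild-type mice for each gene in log2 units, at 5 °C, at 28 °C and in the cold effect, with 95% intervals from the limma fit. Every point is open (none passed), and each of the 30 intervals includes 0.

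Among the 4 groups, the order of the means followed temperature for the 3 genes called in both genotypes. Asns averaged 8.61 in null and 8.54 in wild-type mice at 5 °C, then 7.94 in null and 7.86 in wild-type mice at 28 °C. Psph averaged 6.57 in null and 6.62 in wild-type mice at 5 °C, then 5.91 and 5.90 at 28 °C in the same order of genotypes. Atf5 averaged 8.13 and 8.17 at 5 °C, then 7.77 and 7.73. In each case the neighbours of equal temperature differed by less than the larger SD of the pair. Phgdh averaged 7.03 in null and 6.89 in wild-type mice at 5 °C, then 7.28 and 7.47 at 28 °C, so that its null groups lay between the wild-type ones without a genotype difference that passed.

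No mouse was highest or lowest of its group in all 10 genes. Wild-type 28 °C replicate 4 was the highest of its group in 6 of the 10 genes and lowest in 0, and wild-type 28 °C replicate 3 was lowest in 4 and highest in 1. Null 5 °C replicate 1 was lowest in 6 and null 5 °C replicate 4 highest in 5, while null 28 °C replicate 1 was highest in 3 and lowest in 4. The inguinal pad encloses a lymph node, and 7 B and T cell markers averaged 8.22 in null 28 °C replicate 1 and 7.62 in wild-type 28 °C replicate 3, the highest of their groups, against 4.49 in wild-type 28 °C replicate 4. The null and wild-type mice richest in these markers had the lowest Asns (7.69 and 7.75) and Atf5 (7.50 and 7.39) of their groups. This did not hold throughout: in null mice at 28 °C the mouse with the lowest marker level (4.84) had the next lowest Atf5 (7.58). At 5 °C the lowest Atf5 was in null replicate 2 (7.97, marker level 5.00) and wild-type replicate 2 (8.03, marker level 4.45, the lowest of its group), and the lowest Asns was in null replicate 1 (8.40, marker level 4.17, the lowest) and wild-type replicate 5 (8.42, marker level 5.93, the highest).

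**Figure D4:**
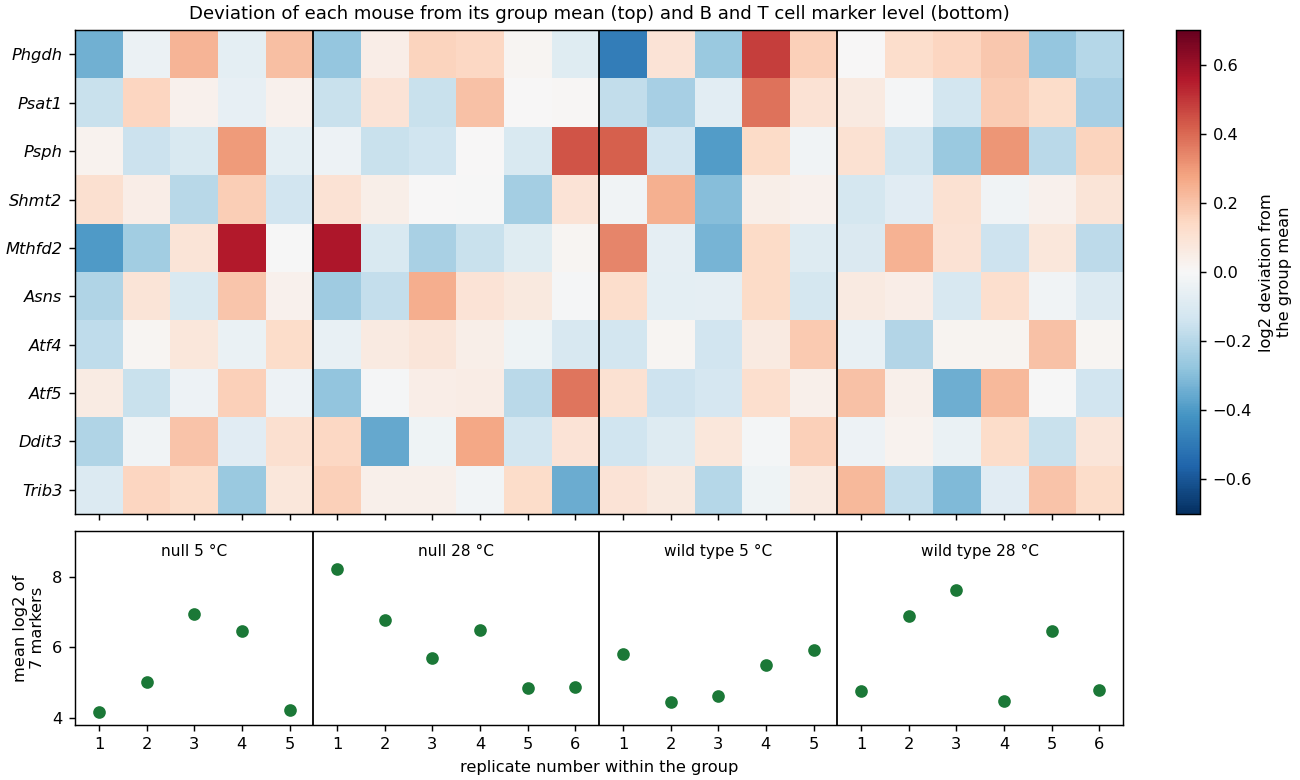
Deviation of each mouse from its group mean for the 10 genes (colour, log2 units) above the mean log2 level of 7 B and T cell markers in the same mouse. The marker level ranges from 4.17 to 8.22, and no mouse is the highest or lowest of its group in all 10 genes.

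Other cell types moved with cold too, and in whole tissue fewer cells of a type cannot be told apart from less RNA per cell. The mean of 7 thermogenic adipocyte markers was 9.46 to 9.93 in null mice at 5 °C against 5.62 to 6.36 at 28 °C, and 9.57 to 9.97 against 5.73 to 6.25 in wild-type mice, with 7 of 7 higher in each genotype. The mean of 7 macrophage markers was 7.97 to 8.13 in null mice at 5 °C against 8.49 to 8.85 at 28 °C, and 7.89 to 8.24 against 8.52 to 8.84 in wild-type mice, with 7 of 7 lower in each. Of 6 fibroblast and preadipocyte markers 6 were lower in each genotype, with medians of −0.58 and −0.66. Of 5 measured markers of dividing cells 0 passed in either genotype, with medians of 0.31 in null and 0.44 in wild-type mice. In the mean of both cold effects 2 of these 5 were higher. The part of these shifts in the changes of the 10 genes was not tested. B and T cell markers (4.17 to 8.22) and 8 muscle markers (5.80 to 9.87) varied between pads, and 0 of either list passed. At 28 °C the muscle markers averaged 6.94 ± 1.00 in null and 8.40 ± 0.77 in wild-type mice (SD, n = 6 each). Their median difference there was −1.57 (null minus wild type), and 0 of the 8 passed. With the B and T cell level as a covariate, Asns rose by 0.65 in null and 0.67 in wild-type mice, Psph by 0.62 and 0.69, and Phgdh fell by 0.57 in wild-type mice, while Atf5 in null mice no longer passed (0.32, adjusted p = 0.0677). This covariate was chosen after seeing the data.

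Of 21 other serine, glycine and folate genes measured, 6 were higher (28.6%) and 2 lower (9.52%) at 5 °C in null mice, beside 6.88% and 6.33% of all genes. In wild-type mice 6 were higher (28.6%) and 1 lower (4.76%), beside 8.35% and 8.3% of all genes. The shares over all genes are larger without the dimmest 50% of genes, as given above. The median changes were 0.09 and 0.15. Dld, the dehydrogenase shared by the glycine cleavage system and the mitochondrial keto-acid dehydrogenases, rose by 1.02 in null and 1.04 in wild-type mice. Slc25a32, which brings folate into mitochondria, rose by 0.54 and 0.85, and Gldc, the glycine decarboxylase, by 0.73 and 0.42. Shmt1, the cytosolic counterpart of Shmt2, rose by 0.87 and 0.50. The methionine synthase Mtr fell by 0.35 in null and by 0.29 in wild-type mice, where it no longer passed with array medians subtracted (−0.24, adjusted p = 0.0580). The neutral amino acid transporter Slc1a4 fell by 0.54 in null mice, with −0.19 in wild-type mice not passing (adjusted p = 0.477).

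Of 21 measured ATF4 targets outside the 10 genes, 6 were higher (28.6%) and 3 lower (14.3%) in null mice, and 4 higher (19%) and 2 lower (9.52%) in wild-type mice, where the share lower is near the 8.3% of all genes. Over all genes 6.88% were higher and 6.33% lower in null mice, and 8.35% were higher in wild-type mice. All of these shares over all genes are larger without the dimmest 50% of genes, as given above. The median changes of the 21 targets were −0.04 and 0.06. Cebpb, a C/EBP factor, rose by 0.77 in null and 0.94 in wild-type mice, the lipoprotein receptor Vldlr by 0.40 and 0.52, the alanine aminotransferase Gpt2 by 0.43 and 0.41 and the tRNA exporter Xpot by 0.35 and 0.43. Nupr1, a stress-induced chromatin protein, fell by 0.36 in null and by 0.33 in wild-type mice, where it missed the threshold with array medians subtracted (−0.28, adjusted p = 0.0505). The mitochondrial PEP carboxykinase Pck2 fell by 0.33 in wild-type mice (−0.16 in null mice, adjusted p = 0.197). The proline synthesis enzyme Aldh18a1 fell by 0.36 in null mice (−0.26 in wild-type mice, adjusted p = 0.109), and the translation repressor Eif4ebp1 fell by 0.29 in null mice (−0.22 in wild-type mice, adjusted p = 0.129). The null call of Eif4ebp1 was lost with array medians subtracted (−0.26, adjusted p = 0.10).

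Of 18 measured aminoacyl-tRNA synthetases, which charge tRNAs and include known ATF4 targets, 3 were higher in null (16.7%) and 4 in wild-type mice (22.2%) and 0 lower, with median changes of 0.12 and 0.15. Over all genes 6.88% were higher and 6.33% lower in null mice, and 8.35% and 8.3% in wild-type mice. Without the dimmest 50% of genes the shares higher are larger (1695 of 11090 genes in null and 1885 in wild-type mice). Gars rose by 0.62 and 0.65 and Mars1 by 0.31 and 0.38. Yars rose by 0.47 in wild-type mice, against 0.13 in null mice (adjusted p = 0.424), and Iars rose by 0.28 in wild-type mice, against 0.23 in null mice (adjusted p = 0.0654).

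Of 14 measured genes for eIF2 kinases, their relays, eIF2 phosphatase subunits, eIF2 and eIF2B, 3 were higher (21.4%) and 1 lower (7.14%) in each genotype, with median changes of 0.09 and 0.17. Beside these stand 6.88% higher and 6.33% lower of all genes in null mice, and 8.35% and 8.3% in wild-type mice. The share lower is near that of all genes. Without the dimmest 50% of genes, both shares over all genes are larger. They are 1695 of 11090 higher and 1810 lower in null mice, and 1885 and 2208 in wild-type mice. The lower 1 was Eif2ak3, the endoplasmic reticulum kinase PERK, which fell by 0.39 in null and by 0.27 in wild-type mice. Eif2ak1, the heme-regulated kinase that relays mitochondrial stress, rose by 0.26 and 0.22, and Ppp1r15b, the constitutive phosphatase subunit, by 0.37 and 0.46. Dele1, which activates Eif2ak1 from mitochondria, rose by 0.36 in wild-type mice (0.14 in null mice, adjusted p = 0.290).

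Mitochondrial chaperones and proteases showed larger changes. Of 12 measured, 10 were higher (83.3%) and 0 lower in each genotype, with median changes of 0.55 and 0.59. Over all genes 6.88% were higher in null and 8.35% in wild-type mice. The co-chaperone Dnaja3 rose by 0.99 in null and 1.04 in wild-type mice, the protease subunit Afg3l2 by 0.90 and 0.99, the chaperone Hspa9 by 0.77 and 0.84 and the unfoldase Clpx by 0.69 and 0.61. Across all 5 lists 0 genes passed when the null cold effect was set against the wild-type one, and the null and wild-type values come from separate mice. Between genotypes 0 genes of these lists passed at either temperature. List medians (null minus wild type) ran from −0.03 to 0.06 at 5 °C and from −0.01 to 0.15 (ATF4 targets) at 28 °C. The ATF4 targets averaged 6.352 to 6.478 per null mouse and 6.219 to 6.346 per wild-type mouse at 28 °C. Of these 21 targets 0 passed there, and the largest difference was that of Ddit4 (0.77, adjusted p = 0.201 by limma). The tRNA synthetases had a median of 0.11 at 28 °C. The gap in the ATF4 targets was not tested.

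**Figure D5:**
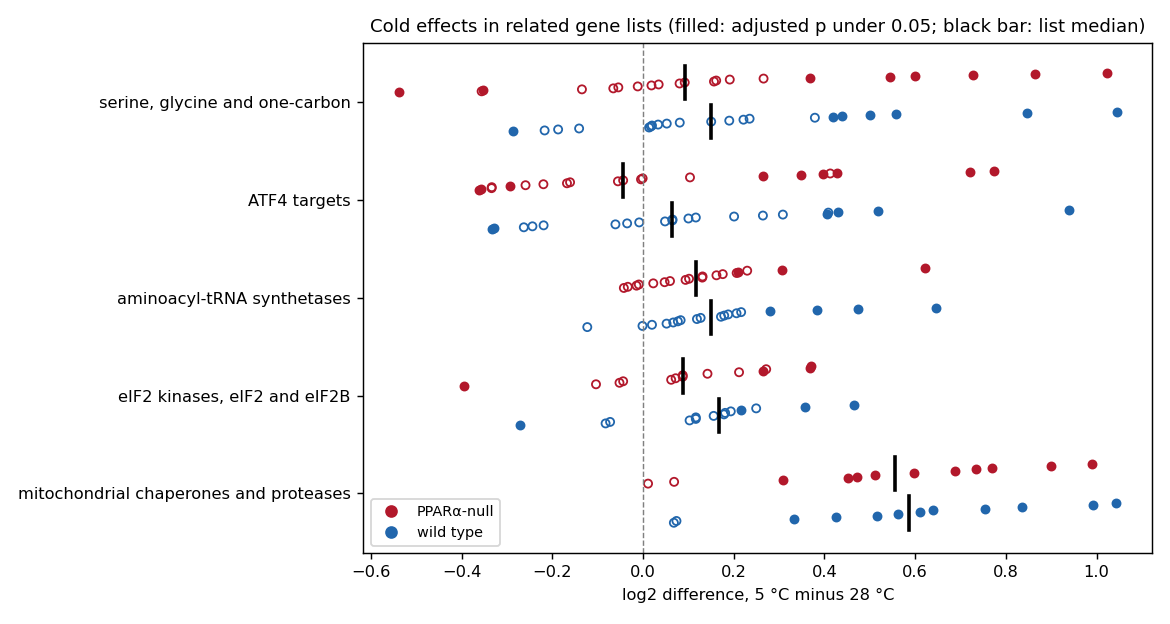
Cold effects in log2 units for the measured genes of 5 related lists, null mice in the upper and wild-type mice in the lower row of each list, with filled points for adjusted p under 0.05 and black bars for list medians. Mitochondrial chaperones and proteases have medians of 0.55 and 0.59, and the other lists have medians between −0.04 and 0.17.

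For the 5 genes called in either cold comparison, the 3 genes with the most similar profile over the 22 arrays were found by the root mean square difference of values centred per gene. For Asns, whose SD over all arrays was 0.37, these were the lipid droplet gene Fitm2 (0.11), the protein kinase A subunit Prkar2b (0.11) and the mitochondrial thiolase Acat1 (0.12). For Psph (SD 0.41) they were Rilp (0.15), the mitochondrial magnesium channel Mrs2 (0.15) and Memo1 (0.16), and for Atf5 (SD 0.27) Ppip5k1 (0.11), Tmem135 (0.12) and the heme synthesis enzyme Urod (0.12). For Atf4 (SD 0.17) they were Zmpste24, Osbp and Ankrd28 (0.11 each), and for Phgdh (SD 0.32) the Wnt receptor Fzd4, the tetraspanin Cd9 and the small nucleolar RNA Snord70 (0.19 each). None of the 10 genes was among the 3 nearest of these 5.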

How the data were processed

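The authors deposited log2 expression values per probe set, made with RMA per the submitters' processing notes. The RMA version, the array's annotation build and any filter are not known here. RNA (100 ng per array, integrity number above 8) came from 1 mouse per array. All 41345 probe sets were read as deposited. Of these, 23521 had 1 gene symbol, 1814 several and 16010 none in the platform annotation used here, and the brightest probe set stood for each of 1082 genes with more than 1. The 22180 genes were fitted with limma 3.58.1 (R 4.3.3) in 1 model of the 4 groups (18 residual degrees of freedom), with Benjamini-Hochberg adjustment over all genes and a threshold of 0.05, and the code was tested on simulated data. Values are log2 units, ± is the SD, and SE and 95% intervals come from the fit. The p-values set a difference of means against the spread between these mice, pooled over the 4 groups. The 10 genes, lists and tests were chosen with earlier results of these data known. Named beyond the 10 are Ppara, up to 4 genes per list with the smallest p in the mean cold effect plus exceptions to its direction, and the 3 nearest genes by profile. Listed symbols were also matched through RefSeq synonyms. Promoter sequences are RefSeq's (GRCm38.p6), found for 10 of 10 genes. Alternatives were other scalings, filters on dim genes, probe set means, trended and robust or weighted fits, fits of the compared groups, a replicate block, each array left out and, added later, marker levels as covariates. Deviations of same-numbered mice from their group means had r of −0.246 to 0.35, with a median of −0.0412 (6 of 31 pairs above 0.1). Differently numbered mice were not compared in this way.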

Additional observations from a re-analysis of the deposited data

Results flagged for a closer look

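Of 40 groups of values (10 genes in 4 groups), 4 held a mouse far from the rest of its group, and all 4 were among the null mice at 28 °C. Chance alone flags about 1 in 20 such groups. Psph was 6.35 in replicate 6, against 5.75 to 5.91 in the other mice of the group. Trib3 was 4.89 in the same replicate 6, against 5.22 to 5.40 in the others. Mthfd2 was 5.42 in replicate 1, against 4.63 to 4.87 in the others, in the mouse with the highest B and T cell marker level of any (8.22). Shmt2 was 6.75 in replicate 5, against 6.98 to 7.09 in the others. The part of cell makeup in these values was not tested.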

How the results depend on the processing

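The calls of Asns, Psph and Atf5 in the cold in wild-type mice, of Asns and Psph in null mice, and of Atf4 and Phgdh in wild-type mice kept their direction and passed under every alternative run, including each array left out. With 1 array left out these ranged from 0.65 to 0.71 (Asns), 0.62 to 0.82 (Psph), 0.38 to 0.49 (Atf5), 0.27 to 0.35 (Atf4) and −0.70 to −0.46 (Phgdh) in wild-type mice, and from 0.62 to 0.73 (Asns) and 0.58 to 0.74 (Psph) in null mice. The exception was Atf5 in null mice, described above (0.30 to 0.43 with 1 array left out), which also missed the threshold without both 28 °C arrays richest in B and T cell markers (0.30, adjusted p = 0.0563); the cause was not tested. With replicate number as a block, 3 of the 10 genes passed in null and 5 in wild-type mice, as without it, and the labels do not say that the numbers pair the mice. Values near 0 that did not pass changed sign when 1 array was left out. In null mice with cold these were Mthfd2 (−0.0192 to 0.232) and Ddit3 (−0.0653 to 0.0608), and in wild-type mice Shmt2 (−0.000854 to 0.14). In the difference of the cold effects they were Psat1 (−0.15 to 0.0044), Psph (−0.163 to 0.0400), Mthfd2 (−0.228 to 0.0233), Asns (−0.0582 to 0.0440) and Trib3 (−0.0038 to 0.13). Between genotypes at 5 °C they were Psat1 (−0.0908 to 0.0628), Psph (−0.150 to 0.0526), Shmt2 (−0.13 to 0.00098) and Mthfd2 (−0.0908 to 0.147), and at 28 °C Psph (−0.0753 to 0.0749), Atf4 (−0.0077 to 0.0737) and Atf5 (−0.0338 to 0.0961). Asns also did so in the difference with the muscle level as a covariate (0.0181), and without the 28 °C arrays richest in B and T cell markers Mthfd2 did in the difference (0.0026) and Psph (−0.0316) and Trib3 (−0.0242) at 28 °C. Over all genes, 0 to 1 passed in the difference with 1 array left out, the 1 without wild-type 5 °C replicate 3, and 19 in place of 33 passed between genotypes at 5 °C with only those groups fitted. With array medians subtracted, 7 in place of 4 tRNA synthetases, 5 in place of 3 eIF2 genes and 7 in place of 6 serine and folate genes were higher in wild-type mice, and 1 in place of 2 ATF4 targets (without Nupr1) and 0 in place of 1 serine and folate gene (Mtr) were lower. In null mice 4 in place of 3 tRNA synthetases and eIF2 genes each were higher, and 2 in place of 3 ATF4 targets (without Eif4ebp1) were lower. With quantile normalization 2 in place of 3 tRNA synthetases were higher in null mice, and 4 in place of 3 eIF2 genes in wild-type mice.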
